A study of Mus musculus with 4 samples.

Results

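The cell division cycle was followed here through 37 genes, 22 of G2 and mitosis and 15 of DNA replication and S phase, chosen by symbol among the 31053 features of 4 single-cell count matrices. All 37 were present in every matrix. A dividing cell first loads the MCM helicase on its DNA, makes nucleotides and copies its genome in S phase, and then builds a spindle and separates its chromosomes under cyclin B, Cdk1, Plk1 and the Aurora kinases. Genes of these steps are transcribed mainly in cycling cells, so that they serve to find such cells in tissue sections and in single-cell data. In skin, division is known chiefly from basal keratinocytes and hair follicles, while most leukocytes of the blood are at rest.

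The mice modelled epidermolysis bullosa acquisita (EBA), a blistering disease in which antibodies bind collagen VII, the protein of the fibrils that anchor the epidermis. C57BL/6J animals 6-8 weeks old were injected 3 times weekly over 2 weeks with 250 µg of IgG. The EBA groups were given antigen affinity purified vWFA2-COL7 IgG, and the IgG groups control rabbit IgG. Peripheral blood after red cell lysis and enzymatically digested ear skin, lesional in the EBA group, gave the 4 libraries, named here EBA skin, IgG skin, EBA blood and IgG blood. Each library was a pool of 3 animals with no replicate. A difference between EBA and IgG is therefore a difference between 2 libraries, no test was possible, and the animals, preparations and treatments cannot be told apart. The disease of this model is passed on by the injected antibody.

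The libraries held 22705634 to 90829463 UMIs (unique molecular identifiers, counted transcripts). After filtering, 3325 to 5106 barcodes were kept in each, with medians of 3741 to 10613 UMIs, and any pair of libraries shared 5 to 9 barcode sequences. Barcodes were clustered without the cell cycle genes, and the 33 clusters were named "X-like" from 170 markers of 30 cell types. The names mostly matched the labelled tissues. Of skin classes, EBA blood held 12 Langerhans cell-like and 1 wound keratinocyte-like barcode, and IgG blood held 2 Langerhans cell-like, 1 basal keratinocyte-like and 1 fibroblast-like barcode. Skin held 1 B cell-like barcode, in the EBA library. Levels are given as CPM, the UMIs of a gene or list per 1000000 UMIs summed over a class. A difference is called higher or lower by its size alone.

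The G2 and mitosis members have promoters of a known kind, in which a CHR element and CCAAT boxes are held by the DREAM and B-MYB complexes and by NF-Y, whereas replication genes more often carry E2F sites. RefSeq (GRCm38.p6) gave the 300 bases from 250 before to 50 after the start of 30 of the 37 members, 18 of G2 and mitosis and 12 of S phase. The CHR letters TTTGAA, searched on both strands, were present in 13 of 18 G2 and mitosis promoters (72.2%), in 1 of 12 S phase promoters (8.33%) and in 17.9% of all 32851 promoters. CCAAT stood in 88.9%, 66.7% and 37.4% of these sets in the same order. E2F was searched, also on both strands, as TTCCCGC and its variants TTGGCGC, then TTCGCGC, and last TTGCCGC. These letters stood in 22.2% of the G2 and mitosis promoters, 58.3% of the S phase promoters and 9.57% of all promoters. CHR and CCAAT together were found in 72.2%, 8.33% and 6.95%. Matches may overlap: an E2F match can share bases with a CCAAT box or with an E2F match on the other strand, and these run together in the sequences. A match is a description of letters and not a site shown to be bound.

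The promoters of 4 G2 and mitosis members and 2 helicase genes show the difference between the sets. The G2 and mitosis members are Mki67 at chr7:135716330-135716629 on the minus strand, Ube2c at chr2:164769679-164769978 on the plus strand, Ccnb2 at chr9:70421505-70421804 on the minus strand and Cdc20 at chr4:118437294-118437593 on the minus strand. The helicase genes are Mcm5 at chr8:75109259-75109558 on the plus strand and Mcm6 at chr1:128359656-128359955 on the minus strand. Each is printed 5′ to 3′ on the strand of its gene, and capitals mark CHR, CCAAT and E2F matches on either strand.
Mki67: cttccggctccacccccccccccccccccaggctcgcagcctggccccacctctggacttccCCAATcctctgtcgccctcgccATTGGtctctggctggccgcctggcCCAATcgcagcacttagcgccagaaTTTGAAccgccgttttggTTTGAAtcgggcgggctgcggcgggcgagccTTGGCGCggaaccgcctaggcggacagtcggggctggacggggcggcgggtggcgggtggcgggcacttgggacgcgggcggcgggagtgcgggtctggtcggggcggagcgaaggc
Ube2c: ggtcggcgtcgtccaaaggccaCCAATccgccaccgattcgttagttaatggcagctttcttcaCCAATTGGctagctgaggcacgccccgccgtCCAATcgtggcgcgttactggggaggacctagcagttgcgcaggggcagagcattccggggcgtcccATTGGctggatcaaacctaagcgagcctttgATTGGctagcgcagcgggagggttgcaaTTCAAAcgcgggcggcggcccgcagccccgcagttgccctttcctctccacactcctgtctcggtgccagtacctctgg
Ccnb2: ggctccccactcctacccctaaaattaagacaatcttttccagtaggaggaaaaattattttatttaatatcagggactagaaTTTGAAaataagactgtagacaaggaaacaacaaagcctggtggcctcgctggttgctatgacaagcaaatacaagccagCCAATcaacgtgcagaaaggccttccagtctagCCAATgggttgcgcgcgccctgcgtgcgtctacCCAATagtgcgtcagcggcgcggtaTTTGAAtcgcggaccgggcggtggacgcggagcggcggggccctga
Cdc20: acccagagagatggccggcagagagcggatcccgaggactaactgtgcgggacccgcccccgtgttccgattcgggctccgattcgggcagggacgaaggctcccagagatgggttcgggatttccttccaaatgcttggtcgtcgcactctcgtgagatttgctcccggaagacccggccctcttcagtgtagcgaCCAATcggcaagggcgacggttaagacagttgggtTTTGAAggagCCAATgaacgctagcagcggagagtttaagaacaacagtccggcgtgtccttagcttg
Mcm5: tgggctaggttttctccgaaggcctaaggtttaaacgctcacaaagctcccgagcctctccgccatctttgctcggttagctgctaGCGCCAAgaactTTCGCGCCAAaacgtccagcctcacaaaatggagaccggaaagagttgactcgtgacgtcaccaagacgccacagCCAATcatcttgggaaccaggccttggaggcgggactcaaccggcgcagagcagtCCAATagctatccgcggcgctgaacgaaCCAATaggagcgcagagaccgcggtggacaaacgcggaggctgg
Mcm6: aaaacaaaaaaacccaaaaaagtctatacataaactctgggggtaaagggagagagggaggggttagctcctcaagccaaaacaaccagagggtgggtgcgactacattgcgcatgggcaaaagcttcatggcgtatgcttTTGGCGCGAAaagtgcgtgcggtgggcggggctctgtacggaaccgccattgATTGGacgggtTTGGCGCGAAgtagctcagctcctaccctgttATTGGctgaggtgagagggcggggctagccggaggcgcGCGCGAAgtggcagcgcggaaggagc
The first 4 hold CHR and CCAAT letters, and Mki67 also holds an E2F match. Both helicase promoters hold E2F and CCAAT letters and no CHR.

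The 22 G2 and mitosis members are cyclins and their kinase (Cdk1, Ccna2, Ccnb1, Ccnb2), other mitotic kinases (Plk1, Aurka, Aurkb), the spindle checkpoint (Bub1, Bub1b), the kinetochore and centromere (Cenpa, Cenpe, Cenpf), spindle proteins (Kif11, Tpx2, Nusap1, Hmmr, Stmn1), the exit from mitosis (Cdc20, Ube2c) and Birc5, Mki67 and Top2a. The 15 S phase members are the helicase (Mcm2, Mcm3, Mcm4, Mcm5, Mcm6, Mcm7 and its partner Gins2), the clamp Pcna, nucleotide synthesis (Tyms, Tk1, Rrm1, Rrm2), the E cyclins (Ccne1, Ccne2) and the chromatin remodeller Hells. The members were not spread evenly over the cell classes. Mki67, the proliferation antigen Ki-67 that coats mitotic chromosomes, stood at 2.3 to 31.3 CPM in the B, T and NK cell-like classes of blood. In skin it reached 65.9 CPM in basal keratinocyte-like cells of IgG skin and 241 CPM in gamma-delta T cell-like cells of EBA skin, the highest of all its sums. It stood at 1.98 and 3.64 CPM in the differentiated keratinocyte-like cells of IgG and EBA skin. Over 45 sums of classes and libraries, the level of Mki67 on a log2(CPM + 1) scale followed that of the other members most closely (Pearson r 0.869). Mcm4, a helicase subunit, followed it least (r 0.471). These correlations are over sums that share libraries and depth, so they are given as descriptions without a test.

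**Figure D1:**
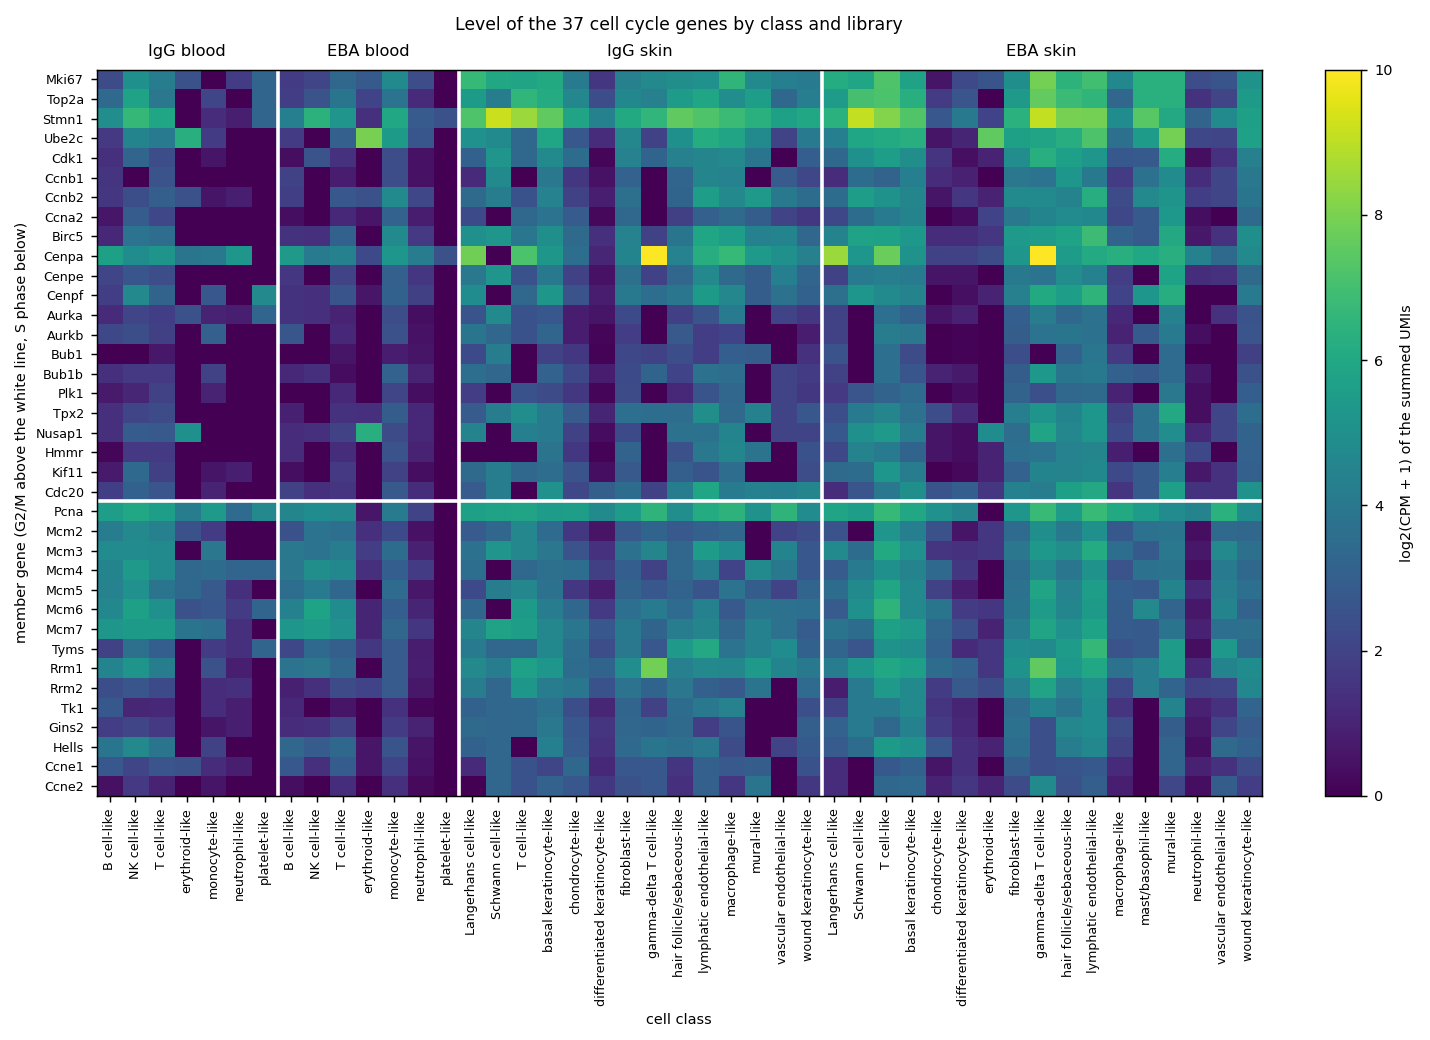
Level of each member, as log2(CPM + 1) in colour, by cell class (columns, grouped by library) with the 22 G2/M members above the white line and the 15 S phase members below it. Cenpa is bright in the gamma-delta T cell-like columns (1164 CPM in IgG skin, 1101 CPM in EBA skin), and Ube2c in the erythroid-like columns. Other members, among them Mki67 (241 CPM) and Top2a (193 CPM), also have their highest sums in the gamma-delta T cell-like column of EBA skin.

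To count cycling cells at equal depth, every barcode with at least 1000 UMIs was thinned at random to that number and called G2/M-positive if it then held UMIs of 2 or more different G2/M members. An S-positive barcode held 2 or more different S members. Barcodes below 1000 UMIs were left out of all shares, 83 in IgG blood, 190 in EBA blood, 145 in EBA skin and 88 in IgG skin, among them 30 of the 371 monocyte-like barcodes of EBA blood and 64 of the 882 neutrophil-like ones of EBA skin. Shares carry exact Clopper-Pearson 95% intervals, and differences of shares carry Newcombe intervals, which all cover counting error only. In neutrophil-like cells of EBA skin, which as a type have left the cycle, 0 of 818 barcodes were G2/M-positive, which allows a share of up to 0.367%. That value describes the neutrophil-like barcodes, at a median depth of 3024 UMIs before thinning against 9100 in the whole library. The free RNA carried by other classes was not measured. In blood, the neutrophil-like class was taken as one without mitosis, with 0 of 432 positive in IgG blood and 3 of 825 (0.364%, 0.0751% to 1.06%) in EBA blood. The class held different clusters in the libraries. Cluster 9, led by Csf3r, held 411 IgG and 3 EBA barcodes. Cluster 19, led by the granule genes Camp, Ngp and Ltf, held 362 EBA and 0 IgG barcodes. Cluster 8, led by Retnlg and with platelet markers, held 467 EBA and 46 IgG barcodes.

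Over skin as a whole the shares lay within counting error of each other, with 152 of 3989 barcodes G2/M-positive in EBA skin (3.81%, 3.24% to 4.45%) and 196 of 5018 in IgG skin (3.91%, 3.39% to 4.48%). The difference of -0.0955 percentage points had an interval from -0.89 to 0.718. What differed was which cells were positive. In IgG skin, 126 of the 196 positive barcodes (64.3%) were basal keratinocyte-like and 20 were fibroblast-like. These are counts of the main thinning, in which the basal share lay above the range of 20 further thinnings. In EBA skin, 43 of 152 (28.3%) were fibroblast-like, 28 (18.4%) wound keratinocyte-like, 23 (15.1%) T cell-like and 10 basal keratinocyte-like. The sizes of the classes moved too, since basal keratinocyte-like barcodes were 30.9% of IgG skin and 2.61% of EBA skin, and shares of classes also depend on digestion. S-positive barcodes were 1.65% of EBA skin and 1.85% of IgG skin.

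**Figure D2:**
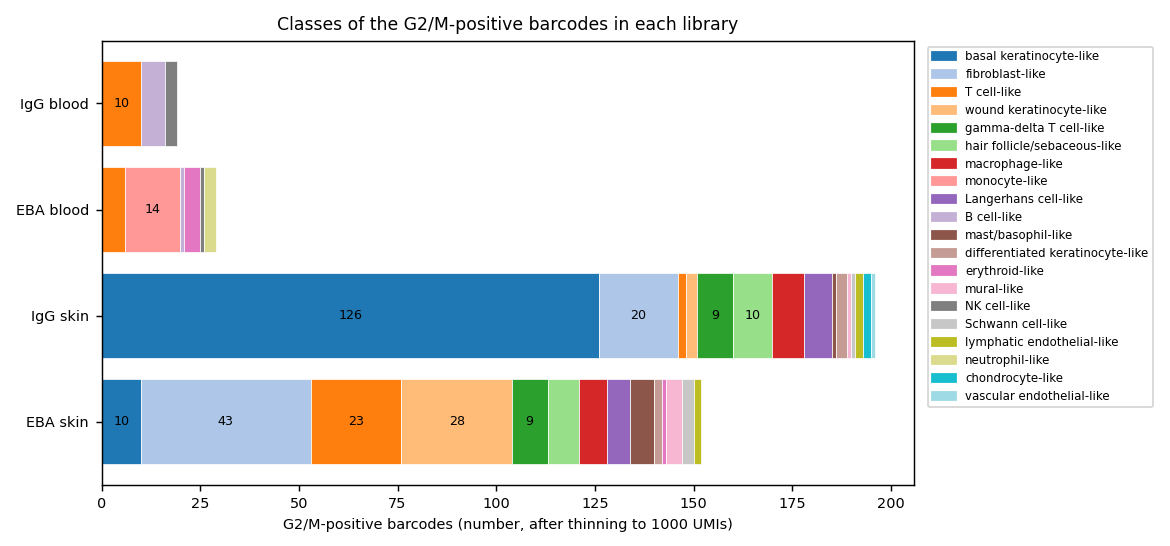
Number of G2/M-positive barcodes in each library (bars from 0), coloured by cell class. Basal keratinocyte-like cells fill most of the IgG skin bar (126) and little of the EBA skin bar (10), and the EBA blood bar holds 14 monocyte-like barcodes where IgG blood has none.

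In blood, leaving out platelets and red cells, 25 of 2799 barcodes were G2/M-positive in EBA blood (0.893%) and 19 of 4204 in IgG blood (0.452%), a difference of 0.441 points (0.0584 to 0.894). S-positive barcodes were fewer in EBA blood, at 31 of 2799 (1.11%) against 111 of 4204 (2.64%), a difference of -1.53 points (-2.15 to -0.894). The sizes of the classes differed too. B cell-like barcodes were 24.1% of EBA blood and 47.7% of IgG blood, and neutrophil-like ones 25% and 10.5%. Of the neutrophil-like barcodes, 1 of 825 in EBA blood and 0 of 432 in IgG blood were S-positive. The part of the class sizes in these differences was not tested. The G2/M-positive barcodes of IgG blood were 10 T, 6 B and 3 NK cell-like barcodes. With the red cells counted, EBA blood had 29, of which 14 (48.3%) were monocyte-like, 6 T cell-like, 4 erythroid-like and 3 neutrophil-like.

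**Figure D3:**
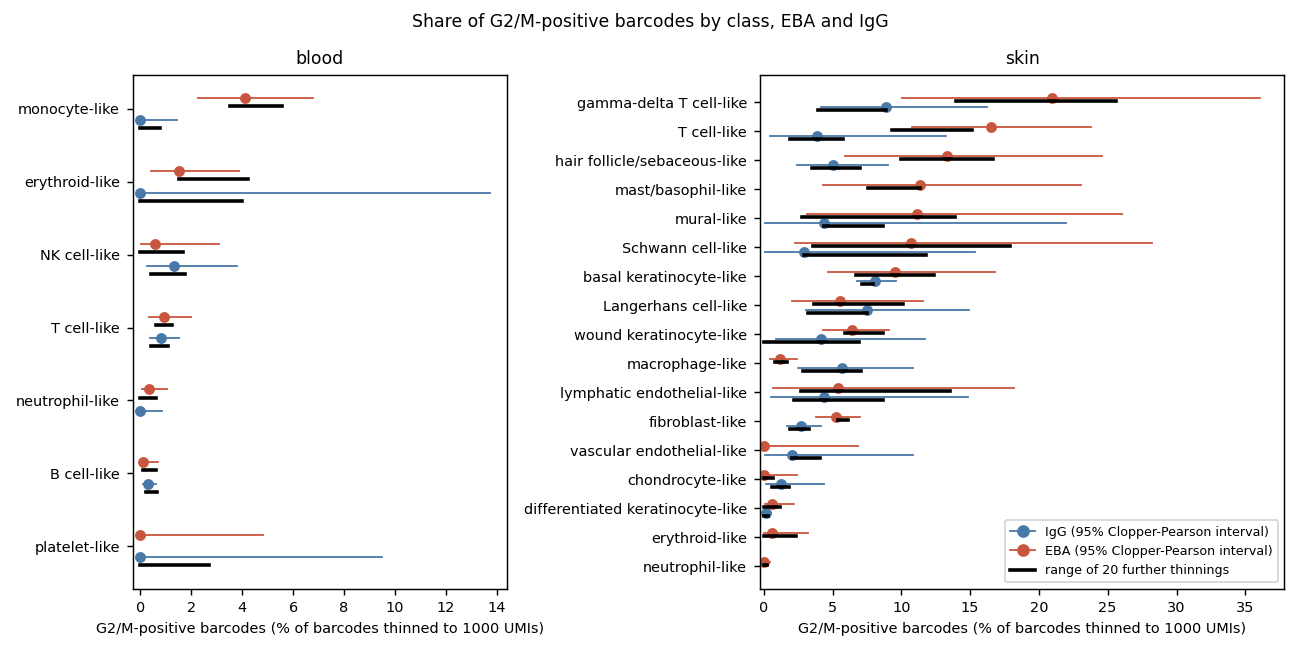
Share of G2/M-positive barcodes by class in blood and skin, with 95% Clopper-Pearson intervals as thin lines and the range of 20 further random thinnings as black bars. EBA lies above IgG with separate thinning ranges in the monocyte-like, fibroblast-like, gamma-delta T cell-like, T cell-like and hair follicle or sebaceous-like classes, and below it in the macrophage-like and vascular endothelial-like classes. Thinning ranges redraw the same barcodes and leave out counting error. The vascular endothelial-like difference, 0 of 52 against 1 of 49, lay within counting error (-2.04 points, -10.7 to 5.04).

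Mitotic transcripts were higher in the monocyte-like cells of EBA blood than in those of IgG blood. After thinning, 14 of 341 barcodes were G2/M-positive in EBA blood (4.11%, 2.26% to 6.79%) and 0 of 254 in IgG blood, which allows up to 1.18%, and over 20 further thinnings the shares ran from 3.52% to 5.57% and from 0% to 0.787%. Without Stmn1, Cenpa, Ube2c and Nusap1, or with 3 or more members required, 5 of 341 (1.47%) and 0 of 254 were positive, a difference of 1.47 points whose interval took in 0 (-0.243 to 3.39). Summed over the 22 G2/M members, the level was 308 CPM in EBA blood and 42.1 CPM in IgG blood, a ratio of 7.31 (95% interval 5.93 to 9.12). Over the class the summed 15 S members did not share this, at 95.9 and 107 CPM (ratio 0.894, 0.772 to 1.04). S-positive barcodes were 5 of 341 in EBA blood (1.47%, 0.478% to 3.39%) and 0 of 254 in IgG blood (0% to 1.44%), intervals that overlap.

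Mki67 had 217 UMIs in the EBA sum (26.5 CPM) and 0 in the IgG sum, at least 19.1-fold higher against a floor of 3 counts. Birc5, the survivin of the chromosomal passenger complex, had 211 UMIs and 0, at least 18.5-fold higher. Ccnb2, a B-type cyclin, stood at 25.6 CPM in EBA blood and 0.463 CPM in IgG blood, from 210 UMIs and 1 UMI, the highest ratio among measured members with a UMI in both sums in blood (55.4, 9.83 to 2197). These 3 genes were thus nearly absent from the IgG monocyte-like sum. Stmn1, a microtubule destabiliser, stood at 61.6 and 1.39 CPM (ratio 44.4, 15.1 to 216, from 3 IgG UMIs), and Ube2c, the ubiquitin-conjugating enzyme of the anaphase-promoting complex, at 42.8 and 2.31 CPM. Top2a, the topoisomerase that untangles replicated DNA, stood at 12.9 and 3.24 CPM. Cenpa, the histone H3 variant of the centromere, showed the smallest of these ratios, at 36.7 against 15.3 CPM. Pcna, the sliding clamp of replication, went the other way at 16.2 and 41.6 CPM.

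A gene counted as measured if its 2 sums together held at least 10 UMIs and the larger level reached 10 CPM. It was called if the levels differed 2-fold or more and the exact interval of their ratio left out 1. A low member can pass this filter only through the group where it is high, so the counts of calls describe the measured members and not all of them. In monocyte-like cells, 7 of the 22 G2/M members were measured and all 7 were higher in EBA blood (median log2 ratio 4.21), beside 6.63% of all genes called higher and a median of -0.47 over all genes. Relative to that median the 7 calls stayed, beside 10.5% of all genes. Of the 5 measured S members, Pcna alone was called lower, beside 17.7% of all genes. Relative to the median it was not, and 1 other S member was higher.

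The clusters behind the class differed between the libraries. Cluster 6, led by Chil3, Plac8, Ly6c2 and Ccr2 of classical monocytes, held 326 of the 371 EBA barcodes but 117 of the 258 IgG barcodes, and the other barcodes fell mostly in cluster 7 with markers of patrolling monocytes. All 14 positive barcodes lay in cluster 6, where 14 of 300 were positive in EBA blood and 0 of 116 in IgG blood (allowing 2.59%). Within cluster 6 the S members summed to 95.05 CPM in EBA blood and 70.91 CPM in IgG blood, unlike over the class. The monocyte-like class of EBA blood also carried RNA of the 7 neutrophil markers, all detected in both groups, at 161600 CPM against 5452 CPM in IgG blood. S100a8 and S100a9 made up a median of 13.9% of the UMIs of an EBA barcode in cluster 6 (range 0% to 44.7%) and 0% in IgG blood (up to 5.74%).

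Positive barcodes were found in finer clusters with low and with high neutrophil transcript levels. Finer clusters split cluster 6, and the finer cluster with 5737 CPM of neutrophil markers in EBA blood and 211 CPM in IgG blood had 4 of 71 positive barcodes (5.63%, 1.56% to 13.8%) against 0 of 90 (allowing 3.33%). Its G2/M members summed to 434 and 49.6 CPM, and its S members to 196 and 68.4 CPM. The 4 positive barcodes there held 29960 CPM of neutrophil markers and the other 67 held 2693 CPM. Over all of cluster 6 in EBA blood the direction was the opposite, at 91720 CPM in the 14 positive barcodes and 170100 CPM in the others. The finer cluster with 190400 CPM of neutrophil markers in EBA blood had 8 of 200 positive barcodes (4%) against 0 of 26, which allows 11.5%, so that no difference was detectable there. The S members of that finer cluster summed to 79.8 and 77.7 CPM. The remaining finer cluster, with 236700 CPM of neutrophil markers, had 2 of 28 in EBA blood. In both of these finer clusters the positive barcodes of EBA blood held less of the neutrophil markers than the others. The levels were 118200 against 193700 CPM and 35480 against 246200 CPM, in the same order. A positive barcode of cluster 6 had a median of 28429 UMIs, and the other 286 had a median of 20975. The 14 positive barcodes carried more transcripts of progenitor granule proteases than the other EBA barcodes of cluster 6. Elane (neutrophil elastase) stood at 280 against 19.6 CPM, Prtn3 (proteinase 3) at 789 against 164 CPM and Mpo (myeloperoxidase) at 102 against 1.72 CPM. These genes were chosen after their values were seen, and the part of the neutrophil transcripts in the summed levels was not tested.

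**Figure D4:**
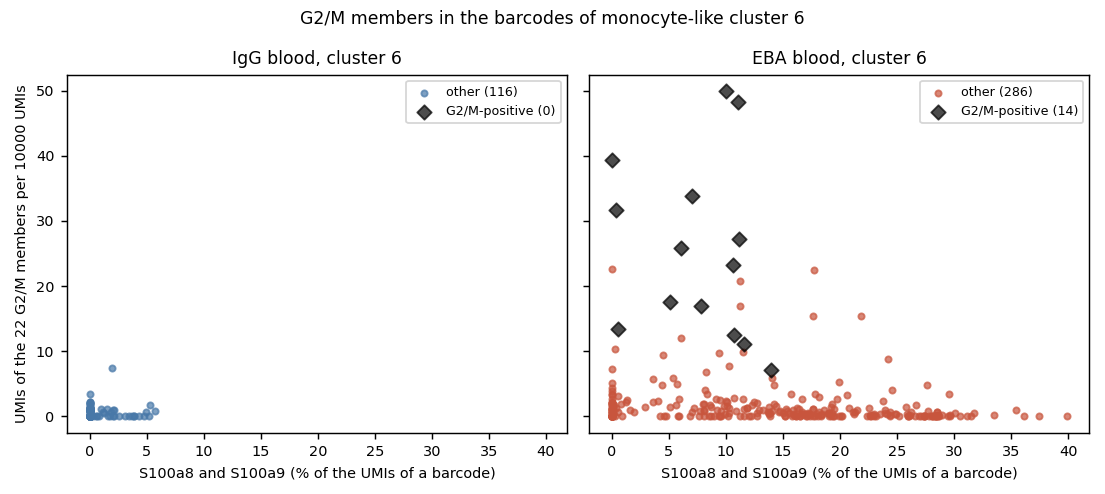
Each point is a barcode of monocyte-like cluster 6 in IgG blood (left) or EBA blood (right), by the share of its UMIs from S100a8 and S100a9 (x axis, percent) and its UMIs of the 22 G2/M members per 10000 UMIs (y axis), with black diamonds for G2/M-positive barcodes. The 14 diamonds of EBA blood lie at S100a8 and S100a9 shares from 0.044% to 13.9%, and IgG blood has none.

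In B cell-like cells, 10 of 797 barcodes were S-positive in EBA blood (1.25%, 0.603% to 2.29%) and 64 of 2073 in IgG blood (3.09%, 2.39% to 3.92%), a difference of -1.83 points (-2.84 to -0.6). The S members summed to 160 and 254 CPM (ratio 0.629, 0.572 to 0.692), and to 0.791 relative to the median of all genes. Pcna stood at 22.1 and 46.5 CPM. Mcm2, a helicase subunit, stood at 4.6 and 17.5 CPM. Of 9 measured S members these 2 were called lower, beside 9.15% of all genes. Relative to the median only Mcm2 was, beside 2.45%. G2/M-positive B cells were rare in both libraries, at 1 of 797 and 6 of 2073.

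T cell-like cells of blood had G2/M sums of 126 CPM in EBA blood and 215 CPM in IgG blood (ratio 0.586, 0.529 to 0.648) and S sums of 189 and 258 CPM (ratio 0.731). Relative to the median of all genes these ratios were 0.717 and 0.895. S-positive barcodes were 10 of 647 (1.55%) and 34 of 1210 (2.81%), a difference within counting error (-1.26 points, -2.56 to 0.237). Their G2/M-positive shares lay within counting error, at 6 of 647 (0.927%) and 10 of 1210 (0.826%). Ube2c alone was called lower of 6 measured G2/M members, at 7.31 against 16.6 CPM, beside 7.74% of all genes. Relative to the median no member was, beside 2.31%. The clusters within the class went in opposite directions. In cluster 1, led by Icos, Il2ra and Cxcr6 of activated T cells, the sums were 465 CPM over 58 EBA barcodes and 2370 CPM over 53 IgG barcodes (ratio 0.196). There, 17 of 20 measured G2/M members were lower relative to the median, beside 4.02% of all genes. Mki67 stood at 52.1 and 275 CPM, Stmn1 at 86.9 and 357 CPM and Ube2c at 39.1 and 305 CPM. The 5 barcodes richest in these UMIs held 91.3% of the IgG sum, so that it describes a few cells. In cluster 2, led by Ccl5, Nkg7 and Cd8b1 of cytotoxic T cells, 5 of 11 were higher, beside 2.86%, at 412 against 242 CPM (ratio 1.71), and 1 barcode held 67.1% of the IgG sum. In cluster 0, the resting T cells with Lef1 and Tcf7, Pcna stood at 22.9 and 46.1 CPM and Rrm1 at 6.8 and 14.9 CPM.

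NK cell-like cells of IgG blood had 337 CPM of G2/M members against 124 CPM in EBA blood, but 1 barcode held 52.9% of the IgG UMIs. Of 7 measured G2/M members 5 were lower relative to the median, beside 3.54% of all genes. Cenpf, a kinetochore protein, had 1 UMI against 23, the lowest ratio of any measured member in a class of blood (0.0658, 0.0016 to 0.405). Positive barcodes were 1 of 178 and 3 of 229, and without the top barcode of each sum the ratio of sums was 0.758 in place of 0.368.

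In skin, G2/M-positive T cell-like barcodes were more frequent in the EBA library. The size of the difference depended on the random thinning and on the members counted. Positive barcodes were 23 of 139 in EBA skin (16.5%, 10.8% to 23.8%) and 2 of 52 in IgG skin (3.85%, 0.469% to 13.2%). The difference was 12.7 points (2.16 to 20.3), an interval for the main thinning only. The EBA share lay above the range of 20 further thinnings, 9.35% to 15.1% with a median of 11.9%, whereas those of IgG skin ran from 1.92% to 5.77%. Without Stmn1, Cenpa, Ube2c and Nusap1, which were often detected without another member in other classes, the counts were 8 of 139 (5.76%) and 1 of 52 (1.92%).

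The G2/M members of these T cells summed to 1246 CPM in EBA skin and 789 CPM in IgG skin (ratio 1.58, 1.34 to 1.87) and the S members to 656 and 357 CPM (ratio 1.84, 1.44 to 2.38). Mki67 stood at 153 and 57 CPM, Top2a at 143 and 95.1 CPM and Ube2c at 68.8 and 9.51 CPM, the latter from 2 UMIs. Stmn1 did not share the direction, at 280 and 361 CPM. Of the measured members 6 of 20 of G2/M and 3 of 12 of S phase were higher in EBA skin and none lower, with medians of 1.20 and 0.96 on the log2 scale beside 0.09 over all genes and 3.89% of genes called higher. In this class 41.6% of the IgG sum came from 1 barcode, and without the top barcode of each sum the ratio was 2.41. With at most 5% mitochondrial UMIs, 84 and 21 barcodes remained and the ratio turned to 0.859 (1163 and 1354 CPM).

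The T cell-like class of skin was almost wholly cluster 1 (146 of 147 EBA barcodes), which expressed Icos, Il17f and Cxcr6. Its positive barcodes in EBA skin carried Cd4 at 93.4 CPM, Cd8a at 0 CPM and Trdc, the gamma-delta receptor chain, at 640 CPM, against 123, 9.58 and 464 CPM in the other barcodes. The Cd8a transcript was thus not seen in the positive barcodes. The class carried erythroid marker RNA at 5739 CPM in EBA skin and 99.8 CPM in IgG skin, whose part was not tested.

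Gamma-delta T cell-like barcodes, the epidermal T cells marked by Trdc, were G2/M-positive in 9 of 43 in EBA skin (20.9%, 10% to 36%) and 9 of 101 in IgG skin (8.91%, 4.16% to 16.2%). Their difference of 12 points had an interval of 0.116 to 26.9, and the further thinnings ran from 13.9% to 25.6% and from 3.96% to 8.91%. Cenpa was an exception that filled these counts, at 1101 CPM in EBA skin and 1164 CPM in IgG skin, the highest of its sums. Without the 4 members named above, 2 of 43 and 1 of 101 were positive, and the sums were 860 and 94.9 CPM (ratio 9.06, 6.27 to 13.5). With all 22 members they were 2611 and 1356 CPM (ratio 1.93, 1.71 to 2.17), but with classes from marker UMIs alone they were 1403 and 1334 CPM (ratio 1.05).

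Stmn1 stood at 535 CPM in the gamma-delta T cell-like cells of EBA skin and 94.9 CPM in those of IgG skin (ratio 5.64, 3.83 to 8.51). Mki67 stood at 241 and 25.1 CPM and Top2a at 193 and 19.5 CPM. Ube2c had 13 UMIs in EBA skin and 1 in IgG skin, the highest ratio of any measured member in skin (20.4, 3.07 to 869). Of the measured members, 9 of 11 of G2/M and 3 of 8 of S phase were higher and none lower, with medians of 2.77 and 1.63 on the log2 scale beside 0.15 over all genes, and 7.78% of all genes were called higher. The 5 barcodes richest in G2/M UMIs held 57% of the EBA sum and 18.5% of the IgG sum. Mki67 was detected in 7 of 44 EBA barcodes and 2 of 104 IgG barcodes, so that its levels describe a few cells. Rrm1, the large subunit of ribonucleotide reductase, was near its highest sums in both libraries, at 189 and 232 CPM.

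Macrophage-like cells showed the opposite. There, 7 of 592 barcodes were G2/M-positive in EBA skin (1.18%, 0.477% to 2.42%) and 8 of 141 in IgG skin (5.67%, 2.48% to 10.9%), a difference of -4.49 points (-9.65 to -1.46). The G2/M members summed to 205 and 681 CPM (ratio 0.301, 0.273 to 0.332) and the S members to 141 and 236 CPM. Mki67 stood at 24.1 and 92.5 CPM, Stmn1 at 27.9 and 110 CPM and Ube2c at 11.9 and 55.7 CPM. Of the measured members 14 of 16 of G2/M and 3 of 6 of S phase were lower and none higher, beside 6.44% of all genes. The 5 barcodes richest in G2/M UMIs held 70.6% of the IgG sum and 28.1% of the EBA sum. The IgG levels of the G2/M members thus describe a few cells. Pcna differed less, at 66.8 and 87.5 CPM.

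The count of positive macrophage-like barcodes was close to equal in both libraries (7 and 8), while the class held 621 barcodes in EBA skin and 146 in IgG skin. The EBA class had less RNA of the 7 macrophage markers (6282 against 8340 CPM) and more of the 10 monocyte markers (2434 against 1893 CPM, with Ace at 0 in IgG skin). Neutrophil markers stood at 1385 and 42.8 CPM, with Cxcr2, Retnlg and Ly6g at 0 in IgG skin. The part of these markers in the lower share was not tested. Langerhans cell-like cells, the dendritic cells of the epidermis, had 6 of 109 (5.5%) and 7 of 93 (7.53%) positive barcodes, a difference within counting error (-2.02 points, -9.81 to 5.09). Of 13 measured G2/M members 5 were lower in EBA skin, beside 2.99% of all genes, but the sums were 678 and 737 CPM with Cenpa at 358 CPM in EBA skin and 229 CPM in IgG skin.

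Fibroblast-like cells had 43 of 820 positive barcodes in EBA skin (5.24%, 3.82% to 7%) and 20 of 736 in IgG skin (2.72%, 1.67% to 4.17%), a difference of 2.53 points (0.566 to 4.51). Further thinnings gave 5.37% to 6.1% and 1.9% to 3.26%. The G2/M members summed to 505 and 311 CPM (ratio 1.62, 1.54 to 1.71) and the S members to 245 and 199 CPM. Ube2c stood at 51 and 23.9 CPM, Ccnb2 at 26.8 and 11.8 CPM, and Nusap1, a spindle microtubule protein, at 10.8 and 3.72 CPM. These 3 of 16 measured G2/M members were higher, beside 3.07% of all genes, and 0 of 13 S members were.

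The class held different clusters in the 2 libraries, and within them the direction was not the same. Cluster 17, led by Coch, Apod and Clec3b, held 579 of the 749 IgG barcodes and had 1 of 569 positive in IgG skin and 0 of 107 in EBA skin. Cluster 18, led by Col3a1, Col1a1 and Tnc of matrix-forming fibroblasts, held 715 of the 828 EBA barcodes. Its positive shares were 43 of 713 in EBA skin (6.03%, 4.4% to 8.04%) and 19 of 167 in IgG skin (11.4%, 6.99% to 17.2%), with further thinnings of 6.17% to 6.87% and 8.38% to 13.8%. The G2/M sums of cluster 18 were 534 and 676 CPM (ratio 0.791, 0.75 to 0.834), and 0 of 17 G2/M members and 0 of 13 S members were called either way, beside 3.23% of genes called higher and 2.28% called lower. The higher share of the class in EBA skin thus went with more barcodes in cluster 18 and not with a higher share within it.

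Keratinocytes were compared as 3 classes and together. Over basal, differentiated and wound keratinocyte-like barcodes, 40 of 874 were G2/M-positive in EBA skin (4.58%, 3.29% to 6.18%) and 132 of 3367 in IgG skin (3.92%, 3.29% to 4.63%), intervals that overlap. Basal keratinocyte-like cells, marked by Krt14, Krt5 and Krt15, had 10 of 105 (9.52%) and 126 of 1553 (8.11%). The further thinnings ran from 6.67% to 12.4% in EBA skin. In IgG skin they ran from 7.15% to 7.92%, below the 8.11% of the main thinning. Differentiated ones had 2 of 331 and 3 of 1742, so that nearly all division lay in the basal and wound classes. In the basal class the G2/M sums were equal within counting error at 692 and 696 CPM (ratio 0.993, 0.945 to 1.04).

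Replication genes of the basal class were higher in EBA skin, at 429 against 272 CPM (ratio 1.57, 1.47 to 1.68). Mcm3 stood at 32.5 and 14.6 CPM and Mcm5 at 26.7 and 12.6 CPM, both subunits of the helicase. Tk1, the thymidine kinase of the salvage pathway, stood at 25.6 and 12.6 CPM. These were 3 of 13 measured S members, and Plk1 (10.3 and 3.85 CPM), a mitotic kinase, was the only 1 of 19 measured G2/M members called higher, beside 3.25% of all genes. The G2/M ratio of the basal class depended on how barcodes were clustered and ran from 0.265 with finer clusters to 2.76 with the cell cycle genes kept in clustering. The ratio of S sums ran from 0.996 to 2.19 over the settings tried, and the class held 108 EBA barcodes and 1578 IgG barcodes.

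The wound keratinocyte-like class, marked by Krt6a, Krt6b and Krt16, was mostly a class of EBA skin, with 450 barcodes against 73. Positive barcodes were 28 of 438 (6.39%, 4.29% to 9.11%) and 3 of 72 (4.17%, 0.868% to 11.7%), a difference within counting error. Sums of G2/M members were 412 and 229 CPM (ratio 1.8, 1.66 to 1.95). Ube2c stood at 51.9 and 16.1 CPM, Mki67 at 33.8 and 16.8 CPM and Ccnb1 at 15 and 3.43 CPM. Ccna2, cyclin A2, stood at 10 and 2.06 CPM, and Top2a at 42.6 and 18.2 CPM. Birc5 stood at 30.2 and 8.93 CPM and Cdk1, the kinase that cyclin B drives, at 19.7 and 6.87 CPM. Cenpf stood at 16.1 and 7.55 CPM, and Tpx2, a spindle assembly factor, at 11.4 and 5.49 CPM. Of the measured members 9 of 13 of G2/M and 2 of 7 of S phase (Mcm3 and Rrm2) were higher, beside 3.71% of all genes. The 5 barcodes richest in G2/M UMIs held 63.9% of the IgG sum and 20.8% of the EBA sum, so that the IgG levels describe a few cells. With the cell cycle genes kept in clustering the ratio turned to 0.936.

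Within the wound class of EBA skin, positive barcodes had more of Krt14, a keratin of the basal layer, and less of Krt10. Krt14 stood at 24940 CPM in the 28 positive barcodes and 10440 CPM in the other 410, and Krt10, a suprabasal keratin, at 2673 and 19370 CPM. The wound keratin Krt6a was also higher in the positive barcodes, at 5810 and 3240 CPM. Cdkn1a, the p21 inhibitor of cyclin-dependent kinases, stood at 151 and 526 CPM. In the basal class of IgG skin, S-positive barcodes were 15.9% of the G2/M-positive ones (20 of 126) and 2.17% of the others (31 of 1427), so that both calls met in the same barcodes more often. Barcodes were grouped here by the members themselves, and these genes were chosen after their values were seen.

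The hair follicle or sebaceous-like cells had 8 of 60 positive barcodes in EBA skin (13.3%, 5.94% to 24.6%) and 10 of 200 in IgG skin (5%, 2.42% to 9%), a difference of 8.33 points (0.792 to 19.4). Their G2/M sums were 1019 and 460 CPM (ratio 2.21, 2.07 to 2.36). Mki67 stood at 87.8 and 29.5 CPM, Ccnb1 at 37.4 and 8.61 CPM, Birc5 at 55 and 13.8 CPM and Cenpf at 48 and 14.1 CPM. Cdc20, the activator of the anaphase-promoting complex, stood at 50.8 and 17.2 CPM. Top2a stood at 110 and 45.2 CPM, Ube2c at 73.9 and 31.4 CPM, Cdk1 at 48.5 and 19.7 CPM, Cenpa at 43.9 and 20.6 CPM, and Rrm1 at 39.3 and 19.4 CPM. Of the measured members 17 of 19 of G2/M and 6 of 13 of S phase were higher and none lower, beside 5.57% of all genes. The 5 barcodes richest in G2/M UMIs held 66% of the EBA sum and 50.9% of the IgG sum, so that these calls rest on a few cells. The class carried less of its own markers in EBA skin (9099 against 16210 CPM) and more of the 5 wound keratinocyte markers (969 against 232 CPM), whose part was not tested. With at most 5% mitochondrial UMIs, 26 and 63 barcodes remained and the ratio turned to 0.873. With the cell cycle genes kept in clustering, the class held 52 EBA and 190 IgG barcodes and its G2/M sums were only 209 and 133 CPM.

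**Figure D5:**
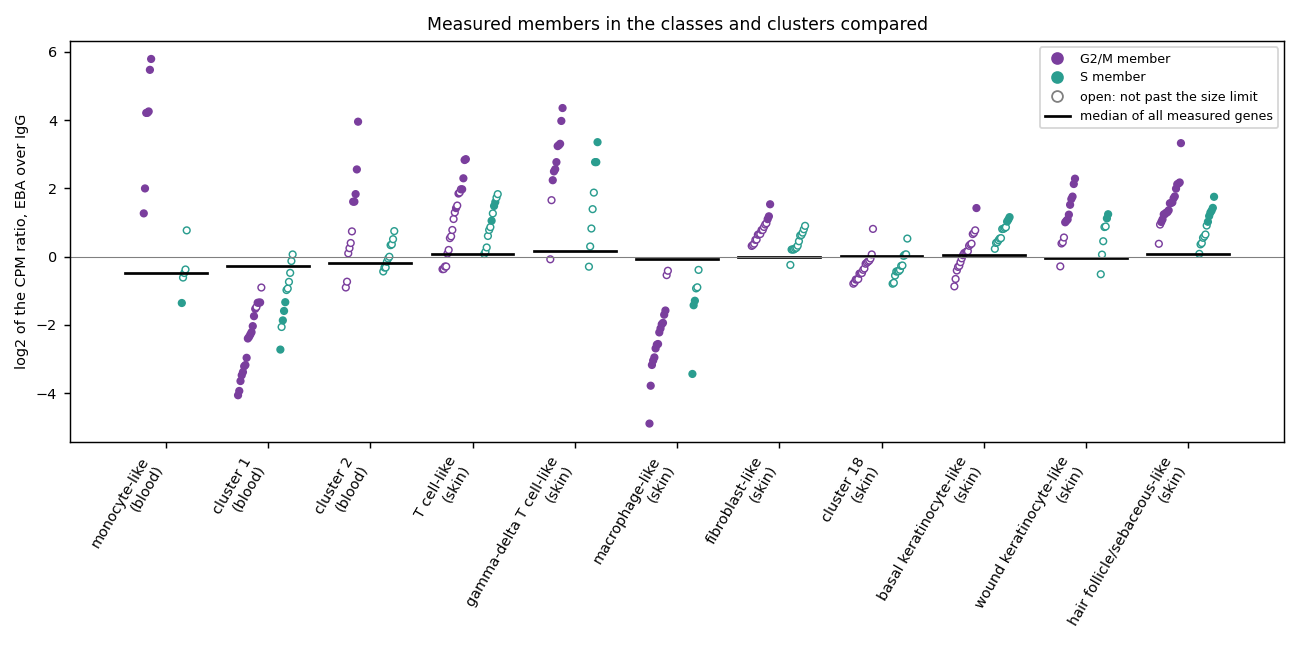
Log2 ratio of CPM, EBA over IgG, for each measured member in 11 classes and clusters, with G2/M members in purple and S members in green. Filled points passed the size limit, and the black line is the median of all measured genes. The G2/M points of monocyte-like cells lie at 1.27 and above, those of macrophage-like cells below 0, and those of cluster 18 on both sides of 0.

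In the small structural classes the sums rested on a few barcodes. Mural-like cells of vessel walls had 1156 CPM of G2/M members over 37 EBA barcodes and 373 CPM over 29 IgG barcodes, with Ube2c at 242 and 26.7 CPM, and 73.2% of the IgG UMIs came from 1 barcode. Lymphatic endothelial-like cells had 1297 and 766 CPM, with 55.6% and 59.9% from 1 barcode, with Mki67 at 124 and 32.4 CPM and Ube2c at 145 and 72.3 CPM. In chondrocyte-like cells, which stem from ear cartilage, all 5 measured G2/M members were lower in EBA skin, beside 4.54% of all genes, at 28.7 against 181 CPM. There, Mki67 had 1 UMI against 24 and the lowest ratio of any measured member in skin (0.0275, 0.000668 to 0.168), and 1 barcode held 59.3% of the IgG UMIs. Vascular endothelial-like cells had 71.3 and 226 CPM, and with at most 5% mitochondrial UMIs their ratio turned from 0.316 to 1.13. Mast cell- or basophil-like barcodes of EBA skin had 6 of 53 positive (11.3%, 4.27% to 23%), and IgG skin held only 12 such barcodes.

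At the thinned depth of 1000 UMIs, some members were often detected without any other member. This depth limits the count: 34.4% of erythroid-like barcodes of EBA blood held 2 or more G2/M members before thinning and 1.53% after it. Cenpa had a UMI in 96 of 2073 thinned B cell-like barcodes of IgG blood, and 70.8% of these held no other member. In the neutrophil-like barcodes of IgG blood it was alone in all 18 with a UMI. Ube2c stood at 244 CPM in erythroid-like cells of EBA blood and 76.8 CPM in those of IgG blood, and Nusap1 at 75.1 and 31.6 CPM, while Mki67 was at 6.13 and 4.51 CPM. In EBA blood 91.5% of the 47 erythroid-like barcodes with Ube2c held no other member. Stmn1 reached 580 CPM in Schwann cell-like cells of IgG skin and 542 CPM in EBA skin, and 9 of 11 barcodes with it in IgG skin held no other member. Pcna was alone in 63.1% of the 103 B cell-like barcodes of IgG blood that had it.

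The other S members with many UMIs followed the classes less sharply. Mcm7, a helicase subunit, stood at 37.1 to 44.1 CPM in B and NK cell-like cells of EBA and IgG blood, and at 57 CPM in gamma-delta T cell-like and 50.1 CPM in T cell-like cells of EBA skin. Tyms, thymidylate synthase, stood at 2.79 and 3.45 CPM in B cell-like cells of IgG and EBA blood. Its highest sums were in lymphatic endothelial-like cells, at 99.5 CPM in EBA skin and 64.8 CPM in IgG skin. In fibroblast-like cells it stood at 28.1 and 15.1 CPM. Rrm1 stood at 12.9 and 21.8 CPM in B cell-like cells of EBA and IgG blood.

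Over all 4 libraries, without a split by class, the members differed as follows. Stmn1 stood at 37.3 and 28.9 CPM in IgG and EBA blood, and at 77.8 and 63.3 CPM in IgG and EBA skin. Top2a stood at 12.1 and 6.73 CPM, then 25.5 and 35.8 CPM, in that order. Skin was above blood for both in each group, and of both genes only Top2a in skin was higher in EBA than in IgG. Cenpa stood at 38.2 and 25 CPM, then 22.7 and 40.5 CPM, and Ube2c at 8.92 and 31.9 CPM, then 20 and 41.4 CPM. Ube2c was thus higher in both EBA libraries. Its highest sum was in erythroid-like cells of EBA blood (244 CPM), a class of 262 barcodes there and 25 in IgG blood. The part of this class in the level of Ube2c was not tested. Rrm1 stood at 17.2 and 5.25 CPM, then 19.3 and 24.7 CPM, and Mcm7 at 34.2 and 13.3 CPM, then 11.9 and 13.7 CPM. Tyms stood at 4.59 and 3.76 CPM, then 12.3 and 14.7 CPM, and Pcna at 44.1 and 12.6 CPM, then 34.2 and 35.9 CPM. Of these 4 S members, 3 had their lowest level in EBA blood and Mcm7 in IgG skin.

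The 7 further lists of cell cycle genes held 140 genes, and those of mitosis went with the members. In macrophage-like cells 16 of 19 measured genes of spindle, kinetochore and cytokinesis were lower in EBA skin and none higher (median log2 ratio -2.06 beside -0.06 over all genes), whereas 2 of 15 origin licensing and fork genes were lower, beside 6.44% of all genes. Smc4, a condensin subunit, stood at 37.2 and 80.6 CPM, and Btg1, an antiproliferative gene, at 2602 and 1205 CPM. In gamma-delta T cell-like cells 7 of 15 spindle genes and 8 of 16 licensing genes were higher, beside 7.78% of all genes (median 1.33 and 1.42 beside 0.15). Smc2, another condensin subunit, stood at 87.8 and 11.2 CPM. In hair follicle or sebaceous-like cells 15 of 28 spindle genes were higher, beside 5.57%, and in fibroblast-like cells 6 of 18, beside 3.07%. In cluster 18 no spindle gene was higher and 1 of 22 was lower, beside 3.23% and 2.28%.

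In monocyte-like cells 6 of 12 spindle genes were higher and 1 lower, beside 6.63% and 17.7% of all genes (median 1.03 beside -0.47). Hmgn2, a nucleosome-binding protein, stood at 139 CPM in EBA blood and 31 CPM in IgG blood. Cdkn2d, the p19 inhibitor of Cdk4 and Cdk6, stood at 209 and 65.7 CPM, and Klf4, a factor of mature monocytes, at 90.7 and 337 CPM. In T cell-like cells of EBA skin Hmgb2 stood at 914 CPM against 442 CPM in IgG skin, and Cdk6, the G1 kinase, at 184 against 90.3 CPM. Among the inhibitors, Cdkn1a was lower in EBA skin in fibroblast-like cells (184 against 522 CPM) and in gamma-delta T cell-like cells (531 against 1086 CPM). The fibroblast-like gap was smaller within cluster 18. Its barcodes that were not G2/M-positive had 144 CPM in EBA skin and 229 CPM in IgG skin. The part of the different clusters in the value of the class was not tested. Ccnd2, a G1 cyclin, was lower in wound keratinocyte-like cells at 44.7 against 152 CPM. Ccnd1, likewise a G1 cyclin, was lower in cluster 18 at 50.5 against 162 CPM.

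The genes outside the lists whose level followed the mean of the members most closely over the 45 sums were Pclaf, the PCNA clamp-associated factor (r 0.822), and Hspe1, a mitochondrial chaperonin (r 0.81). They were followed by Lockd, Bex3, Hspd1, Dtymk, Knstrn, Ube2s, Bpnt1 and Tex30, from 0.807 down to 0.769. The sums share libraries and depth. In the gene annotation, 8 of the 37 members overlap a gene on the opposite strand, among them Ube2c with Tnnc2, Ccna2 with Exosc9, Nusap1 with Oip5, Cdc20 with Elovl1 and Mcm7 with Cops6. No member overlaps a gene on its own strand. How the counting treated strand is not given in the sources used here.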

How the data were processed

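UMI counts per gene and barcode were deposited as 4 matrices of 31053 features. The authors' counts were made with Cell Ranger 3.0.0 against mm10, and Seurat 3.0.0 and 3.1.0 are also named, per the submitters' processing notes. Whether doublets were removed before deposit is not given in the sources used here. Raw counts were used as deposited.

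Barcodes with at least 200 genes and at most 10% mitochondrial UMIs were kept, and the barcodes with the highest Scrublet scores were removed as doublets, 0.8% per 1000 barcodes. Of the removed barcodes that could be thinned, 3 of 159 in IgG blood, 0 of 94 in EBA blood, 8 of 222 in IgG skin and 10 of 140 in EBA skin were G2/M-positive. Clustering (scanpy 1.11.5) used 2000 variable genes without cell cycle, histone, mitochondrial and ribosomal genes, 30 principal components, 15 neighbours and Leiden resolution 1, with no batch integration. Cell names were rebuilt from markers.

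With 1 library per group no test, no SD and no paired fit was possible. Ratios of CPM carry exact conditional 95% intervals (scipy 1.17.1), and all intervals and floors of 3 counts cover counting error only, since 10x barcodes of a pool are not replicates. The scripts for ratios and calls were tested on simulated counts. The members and lists were chosen with earlier results of these data known. Values were given for the 4 members of each phase with most UMIs, members called in a class at 100 or more UMIs, the highest and lowest ratio in each tissue, and up to 2 genes per other list and direction at 50 or more CPM. Genes outside this rule were chosen after their values were seen, among them the members with fewer UMIs in the T, gamma-delta T and NK cell-like classes.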

Additional observations from a re-analysis of the deposited data

Results flagged for a closer look

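With the filters used throughout, the members of T cell-like cells lay in opposite directions in blood and in skin. The ratio of EBA over IgG for the summed G2/M members was 0.586 in blood and 1.58 in skin. For the summed S members it was 0.731 in blood and 1.84 in skin. The difference between the tissues was not tested, since each value compares 1 library with 1 library. At the 5% mitochondrial limit the G2/M ratios were both below 1, at 0.359 in blood and 0.859 in skin, and the S ratios were 0.73 in blood and 1.06 in skin with an interval that took in 1 (0.789 to 1.46). The class was made of different cells in the 2 tissues: skin T cell-like barcodes were nearly all of cluster 1, while most of blood were of cluster 0, with 510 EBA and 1063 IgG barcodes. Within cluster 1 of blood the G2/M ratio was 0.196, on 58 and 53 barcodes.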

How the results depend on the processing

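No paired analysis was possible because each group was 1 library. Of the values that answer a comparison, 166 alternatives stayed close to the value reported, 43 moved and 1 reversed. Of the other values recomputed, 352 stayed, 70 moved and 4 reversed. The summed ratios of neutrophil-like and platelet-like cells are not among them. The cause of these moves was not tested, except that fewer UMIs or barcodes give fewer calls.

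Differences of shares are in percentage points, EBA minus IgG. Without thinning, which leaves the unequal depths in place, G2/M-positive shares differed by 3.77 in blood, 29.7 in monocyte-like cells, 3.11 in skin, 24.4 in T cell-like, 19.6 in basal keratinocyte-like, 14.3 in fibroblast-like and 29.2 in gamma-delta T cell-like cells, and S-positive shares by -8.48 in blood and -3.63 in skin. The S difference in blood was -0.426 at 500 UMIs, -4.83 at 2000 UMIs and -0.095 with 3 or more members. The monocyte-like difference was 7.14 at 2000 UMIs, 1.47 with 3 or more members and 1.47 without Stmn1, Cenpa, Ube2c and Nusap1. At 500 UMIs that of macrophage-like cells was -1.25, and with classes from marker UMIs alone that of basal keratinocyte-like cells was 10.4.

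Calls of members lower in EBA over the classes of blood were 12 as reported, 7 relative to the median, 7 without the top barcode of each sum (an alternative chosen after seeing the data), 21 at a minimum of 1 CPM and 24 at a 1.5-fold limit. Those higher were 9, and 22 at a minimum of 1 CPM. In skin 81 were higher and 30 lower, with 33 and 47 at the 5% mitochondrial limit, and 47 lower both with marker UMIs alone and with finer clusters.

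Summed G2/M ratios of EBA over IgG moved as follows. Relative to the median, the monocyte-like ratio was 10.1. At the 5% mitochondrial limit the T cell-like ratio of skin reversed to 0.859, the hair follicle or sebaceous-like one to 0.873 and the vascular endothelial-like one to 1.13, while basal keratinocyte-like cells had 0.725 and macrophage-like cells 0.207. Without doublet removal the basal and macrophage-like ratios were 1.3 and 0.337. With marker UMIs alone the ratios were 4.73 in T cell-like, 1.69 in basal keratinocyte-like, 1.99 in fibroblast-like and 1.05 in gamma-delta T cell-like cells of skin. With cell cycle genes kept in clustering they were 2.76 in basal keratinocyte-like and 0.422 in macrophage-like cells, and the wound keratinocyte-like one reversed to 0.936. With finer clusters the basal ratio was 0.265 and its S ratio reversed to 0.996. Without the top barcode of each sum they were 2.41 in T cell-like, 0.857 in basal keratinocyte-like, 1.73 in fibroblast-like, 1.57 in gamma-delta T cell-like and 0.341 in macrophage-like cells.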

Other observations

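Regulators of G1 and quiescence also differed in several classes, given here as values without a test. In basal keratinocyte-like cells Gas1, a growth arrest gene, stood at 121 CPM in EBA skin and 40.8 CPM in IgG skin, and Klf2, a factor of resting cells, at 57.7 and 23.8 CPM. In cluster 18 of the fibroblast-like class Gas1 stood at 502 and 208 CPM. In hair follicle or sebaceous-like cells the G1 cyclins Ccnd1 and Ccnd3 stood at 56.3 and 27.1 CPM and at 52.7 and 18.8 CPM, and the stress gene Gadd45a stood lower at 37.9 and 183 CPM. In macrophage-like cells Gadd45b stood at 322 and 699 CPM. Cdk6, at 81.5 and 29.9 CPM there, lay in the opposite direction to the mitotic members.

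In T cell-like cells of blood Smc4, the condensin subunit, stood at 193 CPM in EBA blood and 441 CPM in IgG blood, and Cdkn2d at 103 and 51.2 CPM.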
